A study of Homo sapiens with 9 samples.

Results

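Chromatin accessibility at the BCR and ABL1 fusion segments of K562 cells, a line from a chronic myeloid leukaemia, was described from ATAC-seq peak lists. In ATAC-seq the Tn5 transposase cuts open DNA, and stretches with many cuts are called as intervals. The intervals described here had their centre on chr22:22000001-25000000 or chr9:133000001-135000000 of GRCh37, the windows that hold BCR on one side and ABL1 with its neighbour NUP214 on the other. Over the 9 lists 4939 of 2164004 intervals did so, or 0.228%, on 0.171% of the sequenced bases. Of the 50000 intervals with the highest −log10 p in each list, 1615 lay there, or 0.359%. Per library the windows held 479 to 735 intervals.

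There were 3 genotypes with 3 libraries each. Wild type libraries came from the original K562 cells, heterozygous libraries from a line with STAG2 R614* +/-, and homozygous libraries from a line with STAG2 R614* -/-, whose titles call it STAG2nullA. The STAG2 protein is part of cohesin, which holds DNA strands together and shapes chromatin loops. Both mutant lines were edited with CRISPR-Cas9 and each is 1 line, so genotype and line cannot be told apart. The homozygous cells were adherent and were detached with trypsin, and that difference in culture cannot be told apart from the genotype either. Each library used 50000 cells and was read as single-end reads of 100 bp. No label states that replicates were separate cultures, so p-values measure the spread between these libraries, which may be technical.

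BCR encodes a signalling protein that acts on small GTPases, and ABL1 encodes a tyrosine kinase. In chronic myeloid leukaemia a translocation joins the first part of BCR to ABL1 from its second exon on, and the resulting kinase is always active. K562 is known to carry this fusion joined from BCR exon 14 to ABL1 exon 2, in extra copies that also take in NUP214, which encodes a protein of the nuclear pore. BCR (ENSG00000186716) lies at chr22:23521891-23660224 on the plus strand. ABL1 (ENSG00000097007) lies at chr9:133588430-133763062 and NUP214 (ENSG00000126883) at chr9:134000960-134110050, both on the plus strand. The fused part of chromosome 22 ends in BCR intron 14, chr22:23632601-23634727. The fused part of chromosome 9 starts in the intron between ABL1 exon 1b and exon 2, chr9:133589843-133729450, which is called ABL1 intron 1 below. The break was placed only within these introns, and no base position of it was used. The stretch of the window up to the end of BCR exon 14 is called the BCR side, and the stretch from ABL1 exon 2 to the end of NUP214 the ABL1-NUP214 segment.

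The accessible sequences that the members' results turn on are shown first, from the GRCh37 plus strand. Capitals mark strings of 7 factor families searched on both strands, and some strings overlap or touch. The strings were those of GATA factors (AGATAA or AGATAG, and likewise TGATAA or TGATAG), AP-1 (TGANTCA), ETS (CCGGAAG), NF-Y (CCAAT), SP and KLF (GGGCGG), RUNX (TGTGGT) and the CTCF core. Each window is 150 or 151 bases. The ABL1 promoters belong to its 2 first exons, one before and one inside the intron of the break, and the other windows are regions with high ranks in every library.
BCR, 6 kb upstream, chr22:23516205-23516355: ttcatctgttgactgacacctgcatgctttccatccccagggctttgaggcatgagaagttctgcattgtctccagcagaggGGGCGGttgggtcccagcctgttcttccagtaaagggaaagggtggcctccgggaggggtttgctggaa
ABL1 exon 1b promoter, chr9:133588280-133588429: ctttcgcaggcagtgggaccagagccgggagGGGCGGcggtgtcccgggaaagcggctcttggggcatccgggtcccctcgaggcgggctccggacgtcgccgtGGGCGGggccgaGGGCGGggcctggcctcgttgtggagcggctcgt
ABL1 exon 1a promoter, chr9:133710491-133710640: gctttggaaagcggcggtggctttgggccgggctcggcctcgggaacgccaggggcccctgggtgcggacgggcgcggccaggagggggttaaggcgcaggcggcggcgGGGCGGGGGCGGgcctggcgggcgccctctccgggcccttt
ABL1 intron 1, chr9:133721306-133721456: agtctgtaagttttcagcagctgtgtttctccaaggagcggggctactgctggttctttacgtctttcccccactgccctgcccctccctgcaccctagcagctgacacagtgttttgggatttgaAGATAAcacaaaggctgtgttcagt
ABL1 intron 4, chr9:133741927-133742077: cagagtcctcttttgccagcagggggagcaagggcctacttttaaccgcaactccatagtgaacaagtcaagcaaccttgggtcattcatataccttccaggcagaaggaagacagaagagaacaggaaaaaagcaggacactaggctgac
NUP214 promoter, chr9:134000810-134000959: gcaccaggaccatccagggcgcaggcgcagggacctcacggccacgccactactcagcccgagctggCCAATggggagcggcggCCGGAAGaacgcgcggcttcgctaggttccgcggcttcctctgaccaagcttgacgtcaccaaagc
GGGCGG occurred 3 times before exon 1b, 2 times before exon 1a and 1 time in the BCR window, and in 17.8% of 4774 accessible regions of chromosomes 9 and 22 over the same length. The intron 1 window held 1 GATA string, which 21.7% of those regions held. The NUP214 promoter held CCAAT, found in 17.3% of them, and CCGGAAG, found in 2.64%. None of these exact strings lay in the intron 4 window, and inexact matches were not searched.

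The lists held 181407 to 319697 intervals, with homozygous replicate 3 the longest, so the 50000 highest intervals were compared unless the full list is named. Wild type replicate 3 and heterozygous replicate 1 shared 46.0% of the shorter list exactly, and wild type replicates 1 and 2 shared 23.2%. The other 34 pairs shared 0.223% to 1.17%, so the 9 lists were also treated as 7 sources. Of 9 erythroid marker genes 5 to 7 had a summit within 1 kb of a start site in each library; TAL1, HBG1 and HBG2 had one in 9 of 9 libraries, and GATA1 and KLF1 in 0 of 9. B cell markers had 0 of 4, T cell markers 0 to 1 of 3, and epithelial or fibroblast markers 3 of 4 in each library (EPCAM, KRT8 and COL1A1).

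Intervals were dense on the fused sides of both introns and sparse just across them. On the BCR side there were 6.06, 6.25 and 6.43 intervals per 100 kb in wild type libraries, 6.43, 6.37 and 6.62 in heterozygous ones and 7.41, 6.74 and 6.98 in homozygous ones. Beyond the breakpoint the density was 1.39, 1.61 and 0.95 per 100 kb for wild type, 1.10, 1.46 and 1.39 for heterozygous and 1.68, 1.98 and 1.76 for homozygous libraries. No library of the second stretch reached the lowest of the first. The BCR side was denser by 4.54-fold, with single libraries between 3.41-fold and 6.75-fold (9 of 9 libraries, exact two-sided sign-flip permutation p = 0.00391, the smallest that 9 libraries can give, 0.00625 adjusted over 8 results by Benjamini-Hochberg). Against the rest of chromosome 22 it was denser by 4.70-fold (3.69-fold to 5.70-fold, 9 of 9, the same exact p).

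Start sites were not denser on the BCR side than across the breakpoint. The BCR side had 4.04 start sites of protein-coding transcripts per 100 kb, the stretch beyond its breakpoint 7.18 and the rest of chromosome 22 had 4.78. Chromosome 22 before the window was also denser than the rest, with 2.95 to 3.96 of the 50000 highest intervals per 100 kb against 0.71 to 1.41 after the window.

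On chromosome 9 the ABL1-NUP214 segment had 4.99, 4.73 and 6.31 intervals per 100 kb for wild type, 6.31, 5.52 and 6.04 for heterozygous and 6.57, 6.31 and 6.31 for homozygous libraries. Before the ABL1 breakpoint the density was 1.14 to 2.5 per 100 kb over the 9 libraries, and past NUP214 it was 1.57 to 2.02. The segment was denser than the stretch before the breakpoint by 3.23-fold (2.52-fold to 4.39-fold) and than the rest of chromosome 9 by 4.14-fold (3.46-fold to 4.50-fold). Both differences had the same direction in 9 of 9 libraries (exact sign-flip permutation p = 0.00391, adjusted 0.00625). ABL1 intron 1 itself held 2.15 to 5.01 per 100 kb. All libraries come from 1 cell line, so these tests speak only of agreement between libraries. Unlike at BCR, start sites were denser in the ABL1-NUP214 segment, 7.88 per 100 kb against 4.55 before the breakpoint and 2.15 in the rest of chromosome 9. Intervals away from start sites numbered 3.15 to 5.25 per 100 kb in the segment. They numbered 0.455 to 1.82 before the breakpoint and 0.927 to 1.11 in the rest of chromosome 9.

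**Figure D1:**
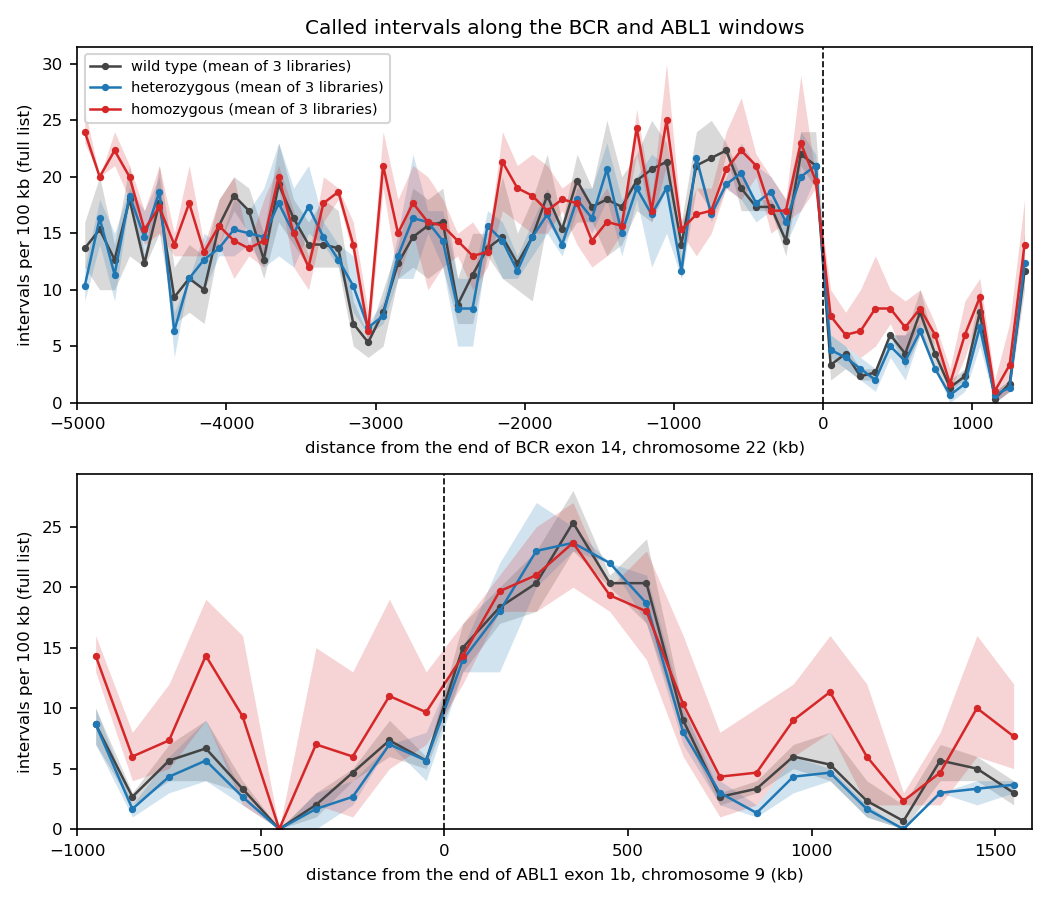
Intervals of the full lists per 100 kb (y axis) against the distance in kb from the end of BCR exon 14 (top) and of ABL1 exon 1b (bottom, x axes). Lines are means of 3 libraries per genotype and bands run from the lowest to the highest library. The BCR side averaged 19.0 in wild type. In all 3 genotypes the count drops at the dashed line in the top panel and rises at the one in the bottom panel.

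**Figure D2:**
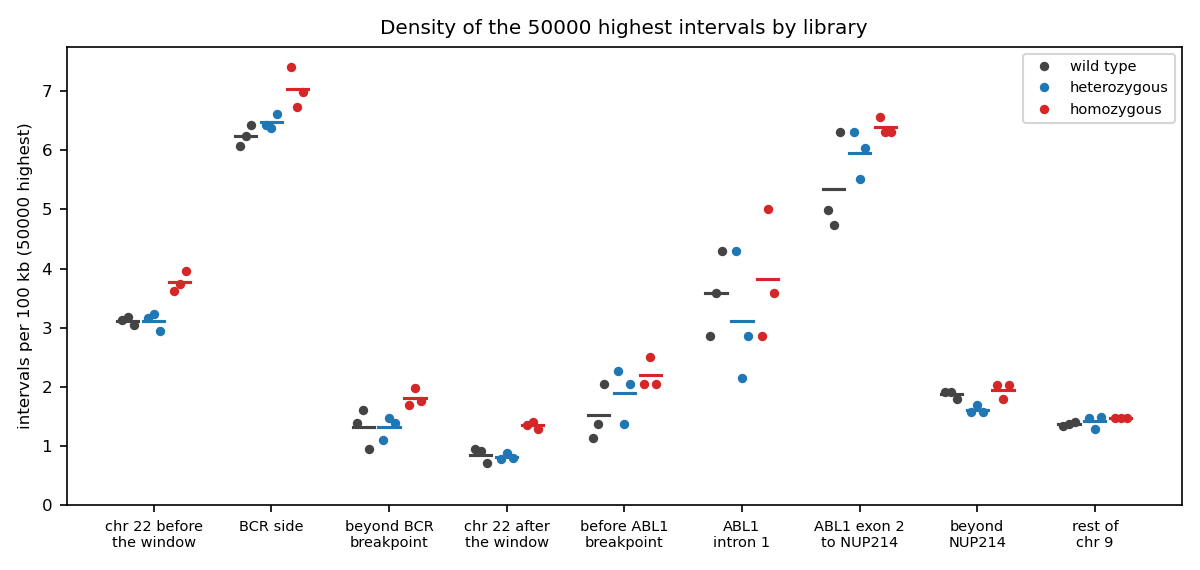
Density of the 50000 highest intervals per 100 kb (y axis) in each stretch (x axis), 1 point per library and a bar at the mean of 3. The BCR side and the ABL1-NUP214 segment lie between 4.73 and 7.41 in every library, above both of their flanks.

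In the full lists the BCR side held 17.0 to 20.2 intervals per 100 kb and the stretch beyond it 2.86 to 8.20. The ABL1-NUP214 segment held 19.2 to 24.2, ABL1 intron 1 held 12.9 to 17.9, and the stretch before the ABL1 breakpoint 3.41 to 17.3. The value of 17.3 belonged to homozygous replicate 3, the longest list, and the next library had 7.28.

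Single intervals in the fused segments did not have a higher fold enrichment. Their median fold enrichment, the authors' value within each list, was 0.905 times that of the rest of both chromosomes (9 of 9 libraries lower, exact sign-flip permutation p = 0.00391, adjusted 0.00625). With the other autosomes as the rest the log2 ratio was −0.02, with an adjusted exact permutation p of 0.336. On the BCR side 31.6% to 39.6% of the full list was among the 50000 highest, against 21.0% to 35.4% in the rest of chromosome 22. The log2 ratio of those shares was 0.28, higher in 8 of 9 libraries (exact sign-flip permutation p = 0.0117, adjusted 0.0156). For the ABL1-NUP214 segment against the rest of chromosome 9 this log2 ratio was 0.0983. It was higher in 6 of 9 libraries and did not pass (exact sign-flip permutation p = 0.395, adjusted 0.451). The median −log10 p of both segments differed from that of the rest by 0.0103. It was higher in 5 of 9 libraries (exact sign-flip permutation p = 0.945, adjusted 0.945).

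The deposited values also gave the background around each interval. A fold and a p from a Poisson test have, for whole read numbers, nearly always 1 solution for the pileup at the summit and for the local background. A unique solution within 5e-05 was found for 99.96% to 99.99% of single-summit intervals per library. The background has a floor in each library, 0.455 to 0.665 reads, and 30.6% to 54.3% of intervals sat on it. Values below are backgrounds divided by that floor, so 1 is the lowest possible, and they are known only where an interval was called. Reads were not analysed here, so copy number was not measured.

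The local background was raised through the BCR side, and its median stood on the floor beyond it. Its median on the BCR side was 2.22 ± 0.0951 (SD, n = 3) for wild type, 2.42 ± 0.162 (SD, n = 3) for heterozygous and 4.45 ± 0.256 (SD, n = 3) for homozygous libraries. The highest wild type library had 2.32, the highest heterozygous one 2.59 and the lowest homozygous one 4.21, so the homozygous libraries did not overlap the others. Homozygous exceeded wild type by 2.01-fold and heterozygous exceeded wild type by 1.09-fold. The 3 genotypes differed by an exact permutation test over 280 assignments (p = 0.00714, 0.0214 adjusted over 9 stretches). Comparing 3 libraries with 3 by exact permutation allows no p below 0.1, the value found for homozygous against either other genotype. With the lists as 7 sources the exact permutation p of homozygous against the others was 0.0286, the smallest possible, and 0.0857 adjusted. Beyond the breakpoint the median was 1 in 9 of 9 libraries. A median on the floor cannot show differences above it. The share of intervals on the floor there was 62.7% to 78.2% in homozygous libraries and 78.6% to 90% in the others. On chromosome 22 after the window it was 62.3% to 79.3% and 82.8% to 88.5%. Over all single-summit intervals it was 34.6% to 54.3% and 30.6% to 44.4%. These shares were not tested.

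The change at BCR fell between intervals on either side of intron 14. The last single-summit interval before the end of exon 14 had a background of 2.79 to 3.36 in wild type and heterozygous libraries, and its centre lay 0.349 to 1.27 kb before that end. In homozygous libraries it lay about 20 kb before and had 5.32 to 5.91. The first one after it lay 12.4 to 112.4 kb beyond and had 1 to 1.73. Homozygous replicate 2, for example, went from 5.91 at chr22:23612156-23612655 to 1 at chr22:23644773-23645272.

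The background before the end of BCR exon 14 was higher in the last 700 kb than in the stretches farther away. Among those stretches, each pooled, it fell with distance in homozygous libraries but not in the other genotypes. In the last 700 kb before the end of exon 14 it was 3.78, 3.66 and 3.78 for wild type, 3.82, 4.46 and 4.0 for heterozygous and 5.73, 5.91 and 6.36 for homozygous libraries. From 2000 to 700 kb before, it was 1.60 to 1.69, 1.64 to 1.91 and 3.22 to 3.37 in the same order. From 5000 to 2000 kb before, outside the window, wild type libraries had 1.15 to 1.25, heterozygous ones 1.30 to 1.53 and homozygous ones 2.24 to 2.67. Pooled from 7000 to 5000 kb before, the values were 1.56 to 1.69, 1.72 to 1.88 and 1.41 to 1.52 in the same order. Bins of 100 kb there mostly had the homozygous mean above wild type instead, as from −6500 to −6400 kb (2.46 against 1.94). From −6800 to −6700 kb it was below (2.71 against 2.83). The stretch held 168 to 272 intervals in homozygous lists and 134 to 194 in wild type ones. Some of its bins were raised in every genotype, with means of 2.91, 2.99 and 3.12 from −6700 to −6600 kb. The ratio of homozygous to wild type was 2.01 in both middle stretches and 1.60 in the last 700 kb. These bounds were chosen after the values were seen, and no test was made on them. Chromosome 22 before the window as a whole had 1.26 ± 0.0501, 1.42 ± 0.111 and 2.07 ± 0.0697 (SD, n = 3 each) and differed between genotypes (exact permutation p = 0.00714, adjusted 0.0214). This call too was lost with 7 sources (exact permutation, adjusted p = 0.0857) and among the 50000 highest intervals (0.0563).

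ABL1 intron 1 behaved much as the BCR side in level. Its median background was 2.42 ± 0.159 for wild type, 2.60 ± 0.145 for heterozygous and 4.51 ± 0.107 for homozygous libraries (SD, n = 3 each). Homozygous libraries again did not overlap the others, with 4.43 to 4.63 against 2.26 to 2.72, a ratio of 1.86 to wild type (exact permutation p = 0.00714, adjusted 0.0214). The call was lost with 7 sources (exact permutation, adjusted p = 0.0857) and among the 50000 highest intervals (0.148). This rests on few intervals, 12 to 16 from 20 kb into the intron to exon 2. Before exon 1b ended, the last single-summit interval was at 1 in 9 of 9 libraries. It lay more than 100 kb before that end in heterozygous replicates 2 and 3, and within 20 kb in the others. Farther out the background was not at the floor throughout. From −40 to −20 kb it was 1.34 and 1.68 in wild type replicates 1 and 3 and 1.43 in heterozygous replicate 1. In homozygous libraries it was 2.45, 1.81 and 1.77 there. These values rest on 1 to 4 intervals each, and the other libraries had none there. The first 20 kb of the intron held 0 to 2 single-summit intervals per library, with medians of 1.22 to 2.35 in the 8 libraries that had any.

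Between ABL1 exon 2 and the start of NUP214 the background was higher than in ABL1 intron 1 in 9 of 9 libraries. It was 6.25, 6.01 and 7.22 for wild type, 7.02, 6.69 and 8.02 for heterozygous and 7.94, 8.16 and 9.04 for homozygous libraries, from 35 to 48 intervals each. Over NUP214 itself it was lower, 3.46 to 4.12, 3.23 to 3.73 and 4.22 to 4.36. In the 60 kb past NUP214 it was 5.71 to 16.6 over the 9 libraries with no order of genotypes, and from 60 to 200 kb past it was 1 to 1.30. For the whole ABL1-NUP214 segment the medians were 5.71 ± 0.233, 6.19 ± 1.11 and 7.90 ± 0.587 (SD, n = 3 each). The lowest homozygous library, at 7.41, and the highest heterozygous one, also at 7.41, nearly met, and the genotype difference did not pass (exact permutation p = 0.05, adjusted 0.113). Without heterozygous replicate 1 it passed (exact permutation, adjusted p = 0.0321). Before the ABL1 breakpoint the medians were 1 to 1.07, past NUP214 1 to 1.36 and in the rest of chromosome 9 1 to 1.07.

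**Figure D3:**
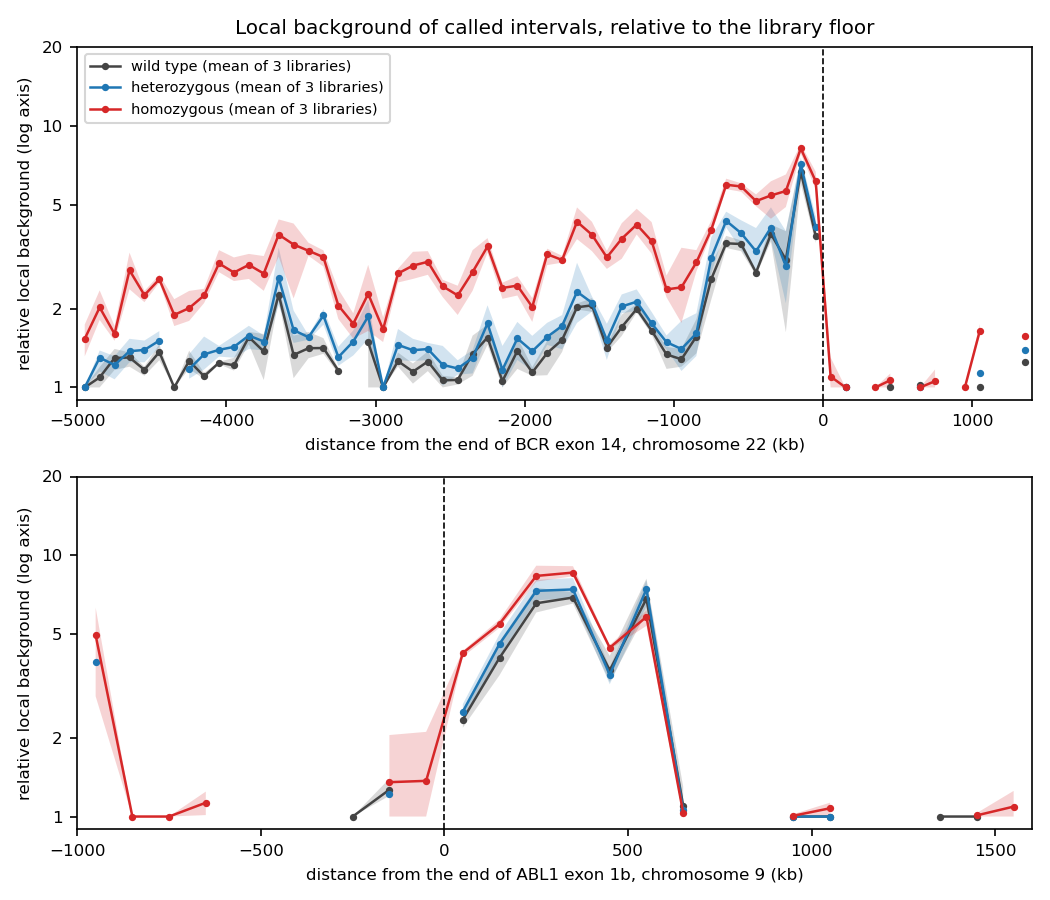
Relative local background in bins of 100 kb (y axis, log scale, 1 is the library's floor) against the distance in kb from the end of BCR exon 14 (top) and of ABL1 exon 1b (bottom). Lines are means of 3 libraries, bands run from the lowest to the highest, and bins are shown where all 3 libraries had at least 3 intervals. The value falls to near 1 just beyond BCR exon 14. Farther on, the homozygous mean is 1.65 from 1000 to 1100 kb, and the 3 genotypes have 1.25, 1.39 and 1.58 from 1300 to 1400 kb. Before exon 14 ends, the homozygous mean lies above the other genotypes in the bins of the 5000 kb shown.

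**Figure D4:**
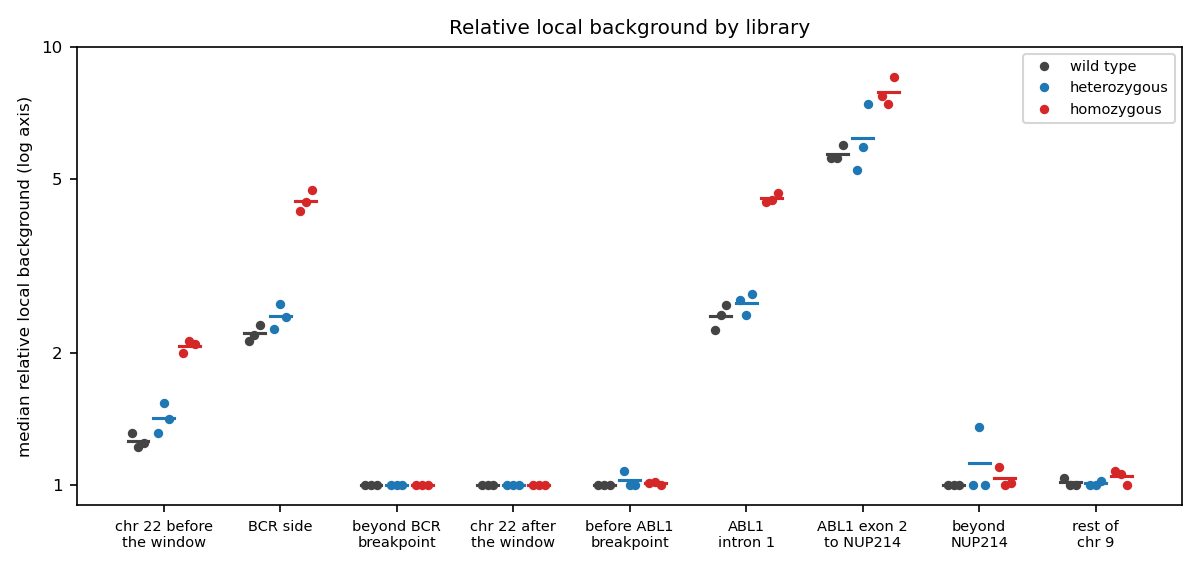
Median relative local background of each library (points, y axis, log scale) by stretch (x axis), with bars at the mean of 3. The homozygous libraries have 4.21 to 4.72 on the BCR side, above every wild type and heterozygous library. Medians of the whole flanks beyond both segments are 1 to 1.36, though the first 60 kb past NUP214 had 5.71 to 16.6.

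The same comparison was made over the genome. Of 12964 tiles of 100 kb with at least 3 intervals in every library, 13% had all homozygous libraries above all wild type ones and 25.5% had them below. On the BCR side 16 of 16 tiles were above, and 3 of 3 in the ABL1-NUP214 segment. Beyond the BCR breakpoint 1 of 4 tiles was above, and past NUP214 1 of 3. Chromosome 22 before the window, outside the segments, had 44 of 54 tiles above wild type and 42 of 54 above heterozygous. Homozygous libraries were above heterozygous ones in 9.09% of all tiles, in 16 of 16 on the BCR side and in 2 of 3 of the ABL1-NUP214 segment. Heterozygous libraries were above wild type ones in 8.14% of all tiles and 4 of 16 BCR-side tiles, and below in 3.4% and 0 of 16. The median ratio of homozygous to wild type was 1.82 over the BCR-side tiles (1.40 to 2.31) and 0.980 over all tiles, and 0.602% of all tiles had a ratio as high as 1.82. For the ABL1-NUP214 tiles it was 1.22, which 9.62% of all tiles reached. Neighbouring tiles are not independent of each other.

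The density of intervals gave a different picture of the genotypes. Against the rest of chromosome 22 the log2 density ratio of the BCR side was 2.32 ± 0.171 for wild type, 2.40 ± 0.0959 for heterozygous and 1.98 ± 0.0991 for homozygous libraries (SD, n = 3 each), a difference that did not pass (exact permutation p = 0.0214, adjusted 0.171). The homozygous libraries had a denser rest of chromosome 22, 1.75 to 1.83 intervals per 100 kb against 1.13 to 1.33 in the others. With the other autosomes as the rest the sign turned, and homozygous exceeded wild type by 0.18 on the log2 scale. The exact permutation test over all 3 genotypes then gave an adjusted p of 0.0429. In the full lists the difference was −0.53, and −0.65 against the stretch beyond the breakpoint (exact permutation p = 0.1 for this pair, and adjusted p = 0.0429 over all 3 genotypes, in both cases). For the ABL1-NUP214 segment against the rest of chromosome 9 the ratios were 1.95 ± 0.197, 2.07 ± 0.0514 and 2.12 ± 0.0366 (SD, n = 3 each; exact permutation p = 0.264, adjusted 0.510).

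The 50000 highest intervals of the 9 libraries merged into 105878 regions, 313 of them in the windows. Of those 93 were found in all 9 libraries, or 29.7%, against 18.2% of all regions. On the BCR side the share was 38.4% (66 of 172), beyond its breakpoint 16.7% (7 of 42) and in the ABL1-NUP214 segment 26.8% (11 of 41).

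At BCR the strongest shared regions lay around the start. The region 6 kb upstream (chr22:23516003-23516769) had ranks of 7656, 3471 and 12340 for wild type, 10357, 1108 and 6398 for heterozygous and 1130, 3410 and 1265 for homozygous libraries, where rank 1 is the highest −log10 p. Homozygous and wild type ranks did not overlap but nearly met, at 3410 and 3471, and the heterozygous ranks spanned both. The share of all regions with ranks apart in this way is not given here, so this is a description only. The lists differ in length, so ranks describe strength within a list and were not tested between genotypes. The region over the BCR start site and exon 1 (chr22:23522042-23523571) ranked 2817 to 15153. Another region lay in BCR intron 1 (chr22:23565414-23566755) and ranked 6917 to 15984.

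At ABL1 the promoter of exon 1b, which lies outside the fused part, was open in every library. Its region (chr9:133587730-133589229) ranked 6744, 11639 and 3843 for wild type, 3449, 10915 and 6250 for heterozygous and 1362, 1128 and 6958 for homozygous libraries. Exon 1a starts inside the intron, at 133710641, and 0 of 9 libraries had one of the 50000 highest intervals within 1 kb of it. Weaker intervals were there in 9 of 9 full lists, at ranks of 145912 to 153621 for wild type, 57389 to 72620 for heterozygous and 63131 to 120732 for homozygous libraries. These late ranks depend on list length and were not compared. A region in ABL1 intron 1 (chr9:133721064-133721643), close before exon 2, ranked 1732 to 20842, and one in intron 4 (chr9:133741697-133742411) ranked 274 to 11383, the best rank at ABL1. Homozygous and wild type ranks overlapped at the exon 1b, intron 1 and intron 4 regions.

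At NUP214 the start-site region (chr9:134000013-134001972) had ranks of 4016, 4292 and 6527 for wild type, 4161, 1644 and 3723 for heterozygous and 1638, 1583 and 1967 for homozygous libraries. Homozygous and wild type ranks did not overlap here either, again without the share over all regions to set beside it. The region at exon 24 (chr9:134053149-134054318), 3 bp from an annotated start site, ranked 97 to 8362, and the region in intron 30 (chr9:134079128-134079657) ranked 8905 to 30006.

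**Figure D5:**
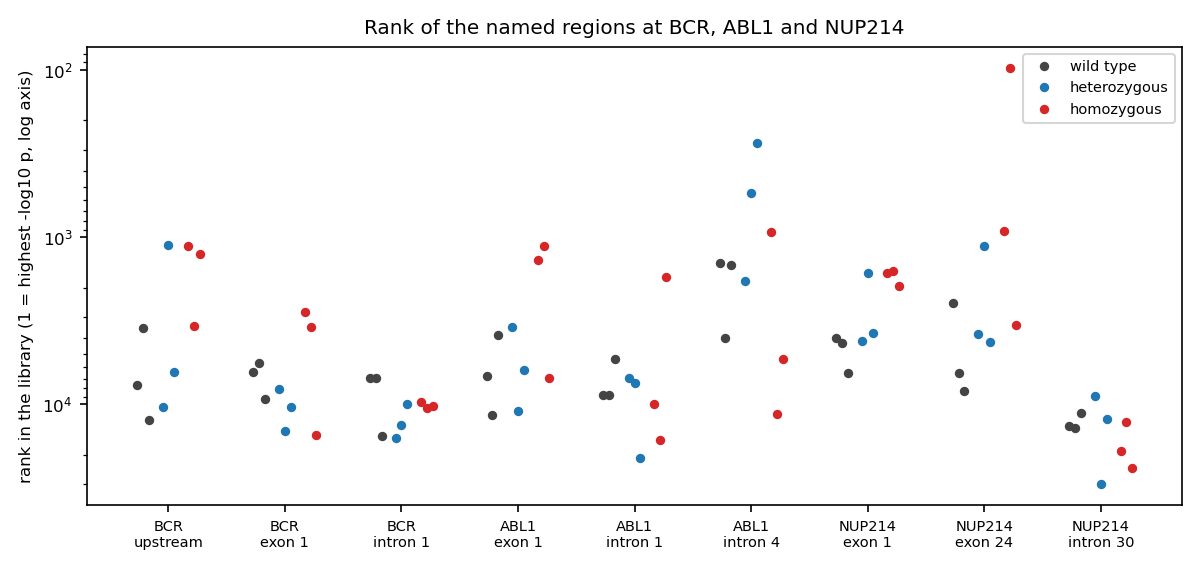
Rank of each library's best interval (points, y axis inverted and on a log scale, 1 is the highest −log10 p) in the 9 named regions at BCR, ABL1 and NUP214 (x axis). Each region has a rank under 50000 in every library, and homozygous and wild type ranks overlap in all but the BCR upstream and NUP214 exon 1 regions. The share of all regions without overlap is not given here.

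Regions were counted as different when 3 of 3 libraries of one genotype and 0 of 3 of another had them among the 50000 highest. Homozygous but not wild type libraries had 15 of 293 window regions, or 5.12%, against 2.7% of all regions. Wild type but not homozygous libraries had 5 of 293, or 1.71%, against 3.46%. Between heterozygous and wild type 0 of 247 differed in either direction, against 0.393% and 0.504% of all regions. Wild type replicate 3 and heterozygous replicate 1, the lists that share intervals, bear on that 0: without the first 19 regions differed and without the second 15, over both directions, and without heterozygous replicate 2 there were 2. The count between homozygous and wild type was 20 over both directions and 31 without homozygous replicate 1. Between homozygous and heterozygous it was 12, and it was 20 when heterozygous replicate 1 was left out, 24 when homozygous replicate 1 was and 20 when its replicate 3 was. Homozygous but not heterozygous libraries had 11 of 301, or 3.65%, against 3.16%, and heterozygous but not homozygous 1 of 301, or 0.332%, against 3.41%.

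Of the 19 regions at BCR, 2 were in homozygous but not wild type libraries, against 2.7% of all regions, and 1 in wild type but not homozygous ones, against 3.46%. The region in BCR intron 18 (chr22:23652853-23653582), past the breakpoint, ranked 26107, 14396 and 18901 in homozygous libraries and was outside the 50000 highest in the other 6. The region at BCR exon 23 (chr22:23657701-23658822), also past the breakpoint, ranked 17051 to 33550 in wild type and heterozygous libraries and 66955 to 70086 in homozygous ones. A region in BCR intron 1 (chr22:23590608-23591114) ranked 16037, 33752 and 7535 in homozygous and was outside in wild type, but 2 heterozygous libraries had it too. The first 2 had a weaker interval in all 9 full lists, so presence differed only in strength. ABL1 and NUP214 had 0 differing regions of 14 and 10.

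Elsewhere in the windows the best ranked regions in homozygous but not wild type libraries lay between genes at chr22:22616977-22617743, nearest VPREB1, at chr22:23064409-23064920, nearest GGTLC2, and at chr9:133837596-133838361, nearest FIBCD1. Regions in wild type but not homozygous libraries lay past NUP214 at chr9:134127825-134128390 and chr9:134120075-134120991, nearest FAM78A. The region at chr22:22921472-22922200, nearest PRAME, was in homozygous but not heterozygous libraries. PRAME is a tumour antigen gene.

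Counts per gene moved little. Intervals with a summit in BCR or within 10 kb of it numbered 13, 13 and 12 for wild type, 13, 13 and 13 for heterozygous and 14, 15 and 15 for homozygous libraries. The homozygous counts did not overlap the others (exact permutation p = 0.0357), but the p adjusted over 18528 genes was 0.509. An unadjusted p under 0.05 was reached by 8.09% of all genes, and 0 genes passed after adjustment. ABL1 had 10, 11 and 11, then 12, 9 and 10, then 9, 13 and 10 (p = 1, exact permutation). NUP214 had 6, 5 and 6, then 5, 6 and 6, then 7, 6 and 6 (exact permutation p = 0.536).

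Of 32 neighbour genes in the windows 29 had a summit, and 0 had an unadjusted exact p under 0.05, against 8.09% of all genes. Their median was 4.95 summits per 100 kb, against 3.19 over all genes with a summit. Of 17 genes whose products act with the fusion kinase, 1 had such a p, again against 8.09% of all genes. It was CBL, a ubiquitin ligase, with 3, 3 and 3 for wild type, 2, 1 and 1 for heterozygous and 4, 3 and 3 for homozygous libraries (exact permutation p = 0.0357, adjusted 0.509). STAT5B, a transcription factor activated by the kinase, had 1, 2 and 2, then 2, 1 and 3, then 5, 3 and 4 (exact permutation p = 0.0714, adjusted 0.678). GAB2, an adaptor, had 9 to 15 and its genotypes overlapped. The 17 genes held 104 regions, of which 1 was in homozygous but not wild type libraries (2.7% of all regions were) and 1 in wild type but not homozygous ones (3.46% of all regions).

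The genes with counts most like BCR over the 9 libraries were BACH2 (Pearson r = 0.96), CCDC146 (0.94) and EML6 (0.94), of 1643 genes on other chromosomes with a mean of at least 5 summits. For ABL1 they were ENSG00000288640 (0.88), UBE2A (0.86) and PHGDH (0.83), and for NUP214 KIAA1217 (0.88), SUCLA2 (0.87) and ALDH1A2 (0.85), each of 1604 genes. The counts share libraries and depth, so these values are a description only.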

How the data were processed

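ATAC-seq peak lists of 9 libraries, 1 list per library, were used, with 3 libraries per genotype. Per the submitters' processing notes the tools were cutadapt, Bowtie2 2.2.9, Picard and MACS2 2.1.0, on hg19 or GRCh37; their settings are not given in the sources used here. The deposited lists hold a fold enrichment (a linear ratio) and the −log10 of a p-value and of a q-value for each interval, as the authors' caller gave them. The lowest −log10 p in any list is 2.0. Most intervals are windows of 500 bp, and 17.2% to 19.2% are joined windows with averaged values. The deposited summit offset did not match these windows: a CTCF string lay within 50 bp of the window centre in 7.77% of 11107 intervals and of the deposited offset in 1.03%, so the centre was taken as the summit.

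Chromosomes 1 to 22 and X were used, and 155 to 289 intervals per list on chromosome Y were left out. Densities count interval centres per 100 kb of reference bases without N. Values per library were compared by exact permutation, two-sided, and adjusted by Benjamini-Hochberg. Pileup and local background were solved from fold and p for single-summit intervals; this measure and its alternatives were added after the data were seen. Genes are from GENCODE release 44 on GRCh37. The named regions were the 3 per member gene whose lowest rank over the 9 libraries was best, those at start sites, and those differing 3 against 3 at a member gene or otherwise the 3 best ranked per direction. The steps were tested on simulated data. Members, gene lists and windows were chosen with earlier results of these data known. No file gives the read depth, and the background floor depends on it. Replicate numbers did not pair libraries: over genes, deviations of same-numbered libraries correlated between −0.24 and 0.12. Some named genes and regions are not reported here. Alternatives are in the closing section.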

Additional observations from a re-analysis of the deposited data

How the results depend on the processing

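The density of the fused segments over the rest of their chromosomes and across both breakpoints kept its direction and passed its exact permutation test under every alternative run. Its genotype difference did not keep its size or call; the cause was not tested. Values below are homozygous minus wild type on the log2 scale unless a level is named. A call refers to the exact test over all 3 genotypes, since the pair alone cannot go below 0.1. For the BCR side against the rest of chromosome 22 it was −0.53 in the full lists, −0.61 in the 20000 highest, −0.61 in the 50000 highest by fold, −0.62 in full lists away from start sites and −0.50 with only chromosome 22 after the window as the rest, all past the threshold, and 0.18 with the other autosomes as the rest. Across the BCR breakpoint it was −0.65 in the full lists, −1.48 in the 20000 highest and −0.90 away from start sites. For the ABL1-NUP214 segment against the rest of chromosome 9 it turned to −0.33 in the 20000 highest and −0.0503 by fold. Across the ABL1 breakpoint it turned to 0.15 in the 100000 highest and passed at −0.91 away from start sites.

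With the other autosomes as the rest, the level of the median fold was −0.0234 and no longer passed, that of the median −log10 p was 0.53, and that of the chromosome 9 share of the strongest intervals was 0.39, both now past the threshold. With 20000 strongest for shares and 50000 for medians these last levels were 2.23 and 0.56. The median −log10 p level turned to −0.0177 with the break introns counted as fused and −0.0076 with 7 sources. The genotype differences that turned sign under the same 2 settings were −0.0633 and −0.0797 for the chromosome 22 share, −0.0956 and −0.0715 for the median fold, −0.095 and −0.36 for the median −log10 p, and −0.41, under the second, for the chromosome 9 share. None of those passed.

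The background differences, in multiples of the floor, kept their direction. With lists that share intervals as 1 source they were 2.08 on the BCR side, 1.98 in ABL1 intron 1 and 0.70 on chromosome 22 before the window, each with an adjusted p of 0.0857 by exact permutation. With a replicate block they were 2.23, 2.08 and 0.81, each with an adjusted p of 0.125 by exact permutation; even fully separated genotypes give 0.0278 before adjustment there. In the 50000 highest they were 1.60 in intron 1 and 0.76 before the window, no longer past the threshold. The lower quartile gave 1.41 for the ABL1-NUP214 segment, which passed.

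Of the differing regions, those between homozygous and wild type went from 20 to 9 in the 20000 highest and 1 when absence from the full list was required. Those between heterozygous and wild type went from 0 to 6 in the full lists and 1 in the 20000 highest, and those between homozygous and heterozygous from 12 to 31 and, by absence, 2. Leaving out 1 library at a time gave −0.0983 to 0.217 for the chromosome 9 share, −0.0318 to 0.0256 for the median fold, −0.0671 to 0.0827 for the level of the median −log10 p, 1.86 to 2.43 for the ABL1-NUP214 background, and 20 to 31, 0 to 19 and 16 to 24 for those counts of regions. Read depth was not known, so a region outside the 50000 highest is not shown to be closed.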

Other observations

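Outside the chromosome 9 window another short stretch had a raised local background. In the 100 kb bin from −1000 to −900 kb before the end of ABL1 exon 1b the median was 4.09 and 4.58 times the floor in wild type replicates 2 and 3. It was 3.45 to 4.35 in the heterozygous libraries and 2.88 to 6.30 in the homozygous ones. Each of those values rests on 4 to 13 intervals, and wild type replicate 1 had only 2 there and was given no value. The genotypes overlapped. The bin was noticed in the plot of the background by distance, and no test was made on it.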
